A study of Mus musculus with 9 samples.

Results

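Aminoacyl-tRNA synthetases are the enzymes that join each amino acid to its transfer RNA. The genes described here are the 38 in the mouse annotation that encode 19 enzyme polypeptides of the cytosol, 16 enzymes of the mitochondrion and 3 scaffold proteins of the multi-synthetase complex, chosen by gene symbol from the 55416 genes counted. They were compared between lenses of mouse embryos, 4 *Atf4* null and 5 wildtype, collected at E16.5, with 1 RNA library from the pair of lenses of each embryo. The null embryos were homozygous for *Atf4* tm1Tow, in which a neomycin cassette stands in place of the coding exons, so ATF4 was missing from the whole body and not only from the lens. The wildtype embryos were littermates from crosses of heterozygous parents on a mixed C57Bl/6 and 129 background.

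Each synthetase recognises its amino acid and the transfer RNAs that carry it, and the charged transfer RNA then brings that amino acid to the ribosome. Cytosol and mitochondrion translate separately, and for most amino acids a different nuclear gene encodes the enzyme of each compartment. In the cytosol, several of these enzymes are held together with the scaffold proteins AIMP1, AIMP2 and AIMP3 (encoded by *Eef1e1*) in the multi-synthetase complex, while the others are free or bind other partners. ATF4 is a transcription factor that is translated when amino acids run short or the endoplasmic reticulum is stressed, and it is known in other cells to bind C/EBP-ATF response elements, 8-base sites at the promoters of amino acid transporter, amino acid synthesis and cytosolic synthetase genes.

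The authors counted reads per gene. Gene counts ran from 8409779 to 8906996 per wildtype library and from 7440807 to 8696699 per *Atf4* null library. Levels are given as CPM, the counts of a gene relative to the library total, with edgeR's TMM factors to correct for library composition. *Atf4* itself, the targeted gene, lay at 138 ± 13.8 CPM (SD, n = 5) in the wildtype libraries and at 5.79 ± 4.65 CPM (SD, n = 4) in the null libraries. Lens fiber markers took 6.55% to 10.6% of the counts in wildtype and 5.53% to 10.5% in *Atf4* null libraries, with *Lim2* at 0 counts in all 9, and lens epithelium markers took 0.105% to 0.143% and 0.062% to 0.107%. Why *Lim2* had 0 counts was not tested, so the value does not show that its RNA was absent. Wildtype replicate 5 stood apart. Skeletal muscle markers took 0.989% of its counts against at most 0.00354% in the other wildtype libraries, and mesenchyme markers took 1.46% against at most 0.0252%. Retina markers took 0.0101% to 0.0176% of the counts in wildtype and 0.0178% to 0.0516% in *Atf4* null libraries. The part of these marker differences in the results was not tested, and in RNA from whole lenses fewer cells of a type and less RNA per cell cannot be told apart.

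All 38 genes passed the filter on low counts. Of these, 6 fell in *Atf4* null lenses and 0 rose (quasi-likelihood test of edgeR, Benjamini-Hochberg adjusted p below 0.05 over the 14903 genes tested). Over all genes tested, 5.90% passed, 3.67% lower and 2.23% higher. The 6 were *Yars1*, *Mars1*, *Aars1*, *Iars1*, *Tars1* and *Nars1*, the cytosolic enzymes for tyrosine, methionine, alanine, isoleucine, threonine and asparagine. They make up 6 of the 19 cytosolic polypeptides, beside 0 of the 16 mitochondrial enzymes and 0 of the 3 scaffold genes. At an unadjusted p below 0.05, 9 of the 38 genes were lower, all of them cytosolic, where 10.2% of all genes tested were, and 3 were higher, where 9.31% were. The 3 were *Rars1* in the cytosol, *Yars2* in the mitochondrion and *Aimp1* among the scaffolds. DESeq2 called 8 cytosolic genes lower and *Yars2* higher, beside 5.66% lower and 3.81% higher of the genes to which it gave an adjusted p. The exactTest of edgeR called 7 cytosolic genes lower and 0 of the 38 higher, beside 4.38% lower and 2.73% higher of all genes tested. The median log2 fold change was -0.27 over the cytosolic genes, 0.01 over the mitochondrial genes and 0.26 over the scaffold genes, against 0.001 over all genes tested. The fitted value lay below 0 for 14 of 19 cytosolic genes, 8 of 16 mitochondrial genes and 0 of 3 scaffold genes, against 49.9% of all genes. In 5 of the 38 genes the *Atf4* null libraries all lay below the wildtype libraries, where 5.58% of all genes tested did so, and in 1 of the 38, *Yars2*, they all lay above, where 4.65% of all genes did so. Without wildtype replicate 5, *Cars1*, *Gars1* and *Lars1* also passed, so that 9 cytosolic genes fell and 0 of the 38 rose, while 4.96% of all genes tested fell and 3.37% rose.

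**Figure D1:**
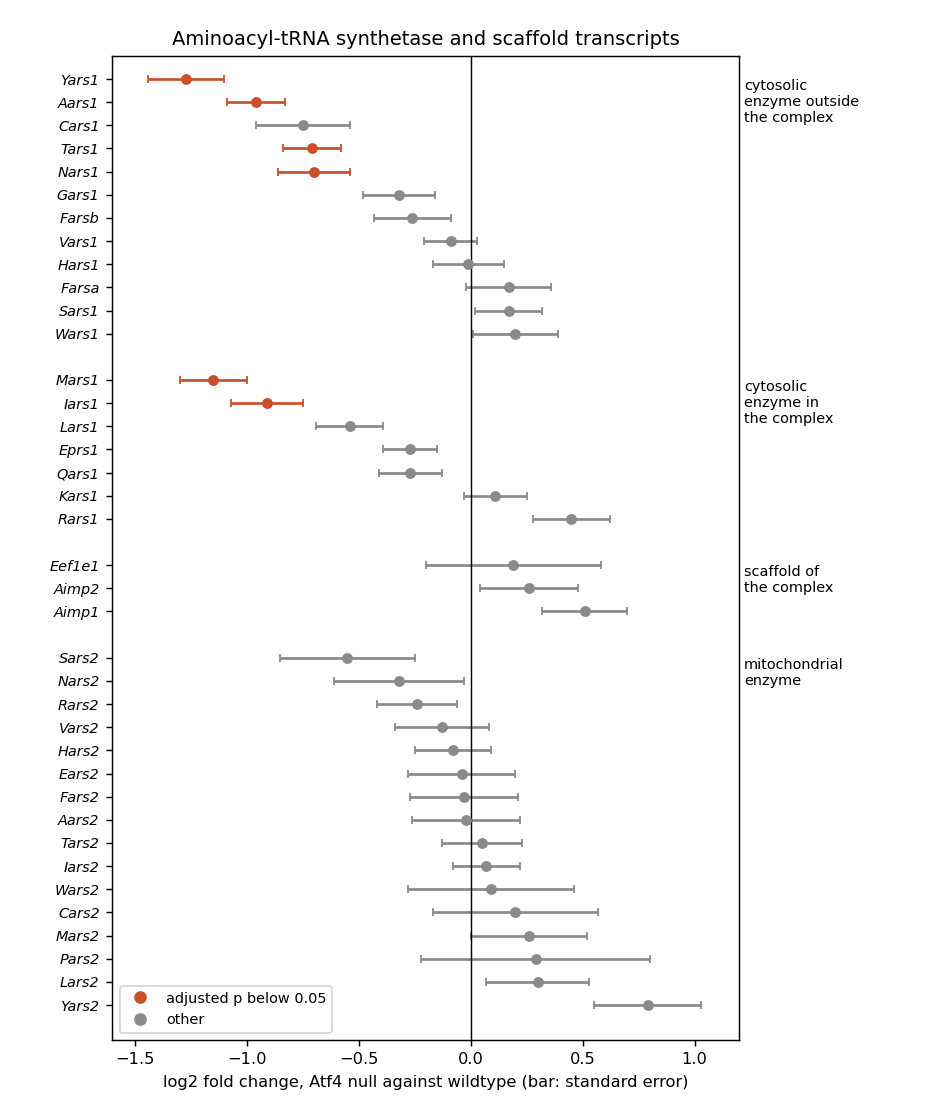
Log2 fold change of each of the 38 genes, *Atf4* null against wildtype, on the x axis, with its standard error as a bar and the genes in rows by compartment and complex. Orange points have an adjusted p below 0.05: all 6 belong to cytosolic enzymes and lie between -1.27 and -0.70, and *Yars2*, at 0.79, is the highest point.

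Sequences around the starts of these genes were searched for the C/EBP-ATF element, since it is a site through which ATF4 is known to act. Other sequences that ATF4 can bind were not searched. The search covered both strands and 2 spellings, TGATGNAA and its stricter form TGATGCAA, so every match to the second is also a match to the first. The stretches that follow are the TGATGCAA matches near the starts of 4 of the genes that fell, and of *Cars1*, which passed the threshold in 8 of the 18 alternative analyses only. *Lars1* also passed in 8 of the 18, and holds no TGATGCAA within 1000 bases of its start, only another spelling of TGATGNAA 474 bases before it. The stretches are shown because they let the position and the bases around the element be compared. They were read from GRCm39, 5′ to 3′ on the strand of the element, with the element in capitals.
Iars1: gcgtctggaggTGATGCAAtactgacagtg
Mars1: ggagcccacgcTGATGCAAtcggaaccggc
Tars1: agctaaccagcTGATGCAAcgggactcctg
Yars1: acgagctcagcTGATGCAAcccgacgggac
Cars1: cttccagaatcTGATGCAAccgcggcgccg

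The *Tars1* stretch is chr15:11399741-11399770 on the plus strand, with the element 8 bases before the start of the canonical transcript. The other 4 lie after the start, in the untranslated part of an exon. They are chr13:49835602-49835631 on the minus strand for *Iars1*, with the element 38 bases after the start, and chr10:127147507-127147536 on the plus strand for *Mars1*, 131 bases after it. The *Yars1* stretch is chr4:129083688-129083717 on the plus strand, 147 bases after the start, and the *Cars1* stretch is chr7:143153782-143153811 on the plus strand, 28 bases after it. *Nars1* also holds TGATGCAA, 124 bases after its start in the untranslated part of an exon.

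In the window from 250 bases before to 50 bases after the start, TGATGNAA was found in 5 of 19 cytosolic genes, in 0 of 16 mitochondrial genes and in 0 of 3 scaffold genes, against 2.36% of the 12841 protein-coding genes tested. TGATGCAA was found in 4 of 19 cytosolic genes, against 0.522% of all. The window stops short of the elements of *Mars1*, *Nars1* and *Yars1*, which lie farther into the transcript. Within 1000 bases on both sides of the start, a window added after the values had been seen, TGATGCAA was found in 11 of 19 cytosolic genes, 0 of 16 mitochondrial genes and 0 of 3 scaffold genes, against 3.82% of all. Among these were also *Eprs1*, *Farsb*, *Gars1* and *Wars1*, whose TGATGCAA lies 367, 309, 992 and 652 bases after the start, each in an intron. None of these 4 passed the test, at log2 fold changes of -0.27, -0.26, -0.32 and 0.20. A match describes the letters only and was not tested for binding.

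**Figure D2:**
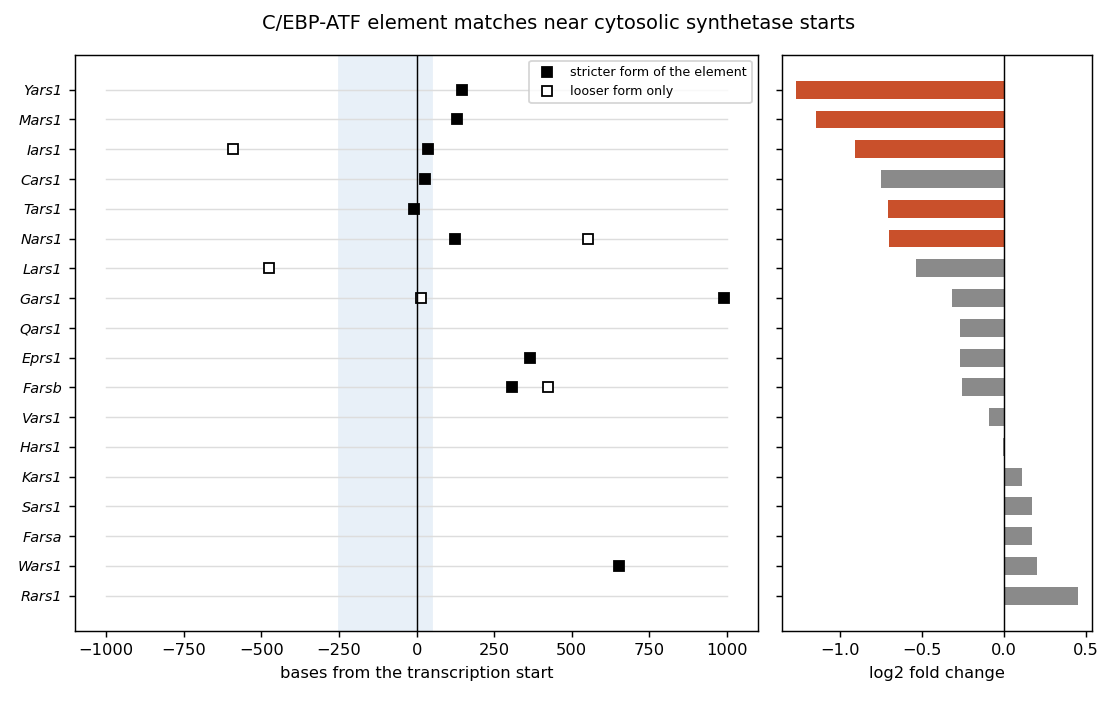
Left, position of each element match from 1000 bases before to 1000 after the transcription start of 18 of the 19 cytosolic genes, all but *Aars1*, ordered by fold change; filled squares are TGATGCAA, open squares another spelling of TGATGNAA, and the shaded band runs from 250 before to 50 after the start. Right, the log2 fold change of each gene, orange where the adjusted p was below 0.05. The filled squares of *Cars1*, *Iars1* and *Tars1* lie in the band, and those of *Mars1*, *Nars1* and *Yars1* to the right of it.

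*Yars1* (ENSMUSG00000028811, chromosome 4 from 129082752 to 129114906 on the plus strand) encodes the cytosolic tyrosine enzyme. Its level was 110, 77, 95.2, 93.4 and 76.8 CPM in wildtype replicates 1 to 5 and 28, 44.2, 33.4 and 45.1 CPM in *Atf4* null replicates 1 to 4. Every null library lay below every wildtype library. The wildtype mean of 90.5 ± 14 CPM (SD, n = 5) compared with 37.7 ± 8.35 CPM (SD, n = 4) without ATF4. *Yars1* had the lowest log2 fold change of the 38 genes, -1.27 with a standard error of 0.17 and an adjusted p of 8.57e-04 in edgeR's quasi-likelihood test.

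*Mars1* (ENSMUSG00000040354, chromosome 10 from 127128344 to 127147776 on the minus strand) encodes the methionine enzyme, which also charges the initiator transfer RNA, and belongs to the multi-synthetase complex. It stood at 104, 80.1, 90.5, 75.4 and 65.4 CPM in the wildtype libraries and at 35.5, 37.4, 36 and 40.9 CPM in the *Atf4* null libraries. The null values were close to each other and all below the lowest wildtype value. *Mars1* fell by 1.15 on the log2 scale, with a standard error of 0.15 and an adjusted p of 5.72e-04 (edgeR's quasi-likelihood test). The gene shares 3820 bases with *Ddit3*, which encodes the stress transcription factor CHOP on the opposite strand. *Ddit3* rose from 4.66 ± 3.09 CPM (SD, n = 5) to 43.1 ± 13.5 CPM (SD, n = 4). The strand setting of the counting is not given in the sources used here, so reads over the shared bases could belong to either gene, and the effect of this on the *Mars1* value was not tested. The same limit holds for *Aars1*, *Yars1* and *Yars2*, which overlap *Ddx19b*, *S100pbp* and *Nhsl3*, and *Dnm1l*, respectively, on the opposite strand, and for *Hars1* and *Hars2*, which overlap each other by 198 bases. It also holds for other members that overlap a protein-coding gene on the opposite strand. Among these are *Iars2* (*Bpnt1* and *Rab3gap2*), *Rars2* (*Orc3*), *Mars2* (*Boll*), *Kars1* (*Terf2ip*), *Aimp1* (*Tbck*) and *Aimp2* (*Eif2ak1* and *Pms2*).

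*Aars1* (ENSMUSG00000031960, chromosome 8 from 111754391 to 111784296 on the plus strand) encodes the alanine enzyme. Wildtype replicates 1 to 5 had 154, 141, 144, 143 and 103 CPM, and *Atf4* null replicates 1 to 4 had 75.9, 65.6, 71.1 and 68.1 CPM. The groups did not overlap, and wildtype replicate 5 was the lowest wildtype library by a wide margin. The log2 fold change was -0.96 with a standard error of 0.13 and an adjusted p of 6.71e-04 in edgeR's quasi-likelihood test.

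*Iars1* (ENSMUSG00000037851, chromosome 13 from 49835576 to 49887745 on the plus strand) encodes the isoleucine enzyme of the multi-synthetase complex. It had 231, 176, 198, 186 and 140 CPM in wildtype and 76.8, 98.4, 104 and 118 CPM in *Atf4* null libraries, again without overlap. Its log2 fold change was -0.91 with a standard error of 0.16 (adjusted p = 0.00409, edgeR's quasi-likelihood test). *Tars1* (ENSMUSG00000022241, chromosome 15 from 11382387 to 11399775 on the minus strand), the threonine enzyme, had 77.7, 74.8, 66.7, 67.8 and 62.1 CPM in wildtype and 40.1, 39, 45.2 and 46 CPM in *Atf4* null libraries. Here too the groups stood apart, with a log2 fold change of -0.71, a standard error of 0.13 and an adjusted p of 0.0052 in edgeR's quasi-likelihood test.

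*Nars1* (ENSMUSG00000024587, chromosome 18), the asparagine enzyme, had 87.2, 84.8, 90.8, 85.8 and 57.4 CPM in wildtype and 43.4, 47.5, 49.5 and 59.8 CPM in *Atf4* null libraries. The groups overlapped, because wildtype replicate 5 lay below *Atf4* null replicate 4. The log2 fold change was -0.70 with a standard error of 0.16 and an adjusted p of 0.0186 in edgeR's quasi-likelihood test. When wildtype replicate 5 was left out, the adjusted p was 0.00144, and without *Atf4* null replicate 2 or 3, or wildtype replicate 2, 3 or 4, it lay between 0.0506 and 0.0657 and so missed the threshold. The other 5 genes that fell passed under each of the 18 alternative analyses.

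*Cars1* and *Lars1* lay nearest to the threshold among the genes that did not pass. *Cars1*, the cysteine enzyme, had 239, 197, 178, 162 and 119 CPM in wildtype and 74.9, 101, 97.6 and 152 CPM in *Atf4* null libraries, with a log2 fold change of -0.75 and a standard error of 0.21 (adjusted p = 0.0583, edgeR's quasi-likelihood test). *Lars1*, the leucine enzyme of the multi-synthetase complex, had 285, 253, 238, 243 and 186 CPM in wildtype and 132, 163, 156 and 214 CPM in *Atf4* null libraries, with a log2 fold change of -0.54 and a standard error of 0.15 (adjusted p = 0.06, same edgeR test). In both genes *Atf4* null replicate 4 was the highest null library and wildtype replicate 5 the lowest wildtype library, and the overlap came from these 2 libraries. Without wildtype replicate 5 the adjusted p was 0.00788 for *Cars1* and 0.0128 for *Lars1* in the same test, and without *Atf4* null replicate 4 it was 0.0128 and 0.0136.

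**Figure D3:**
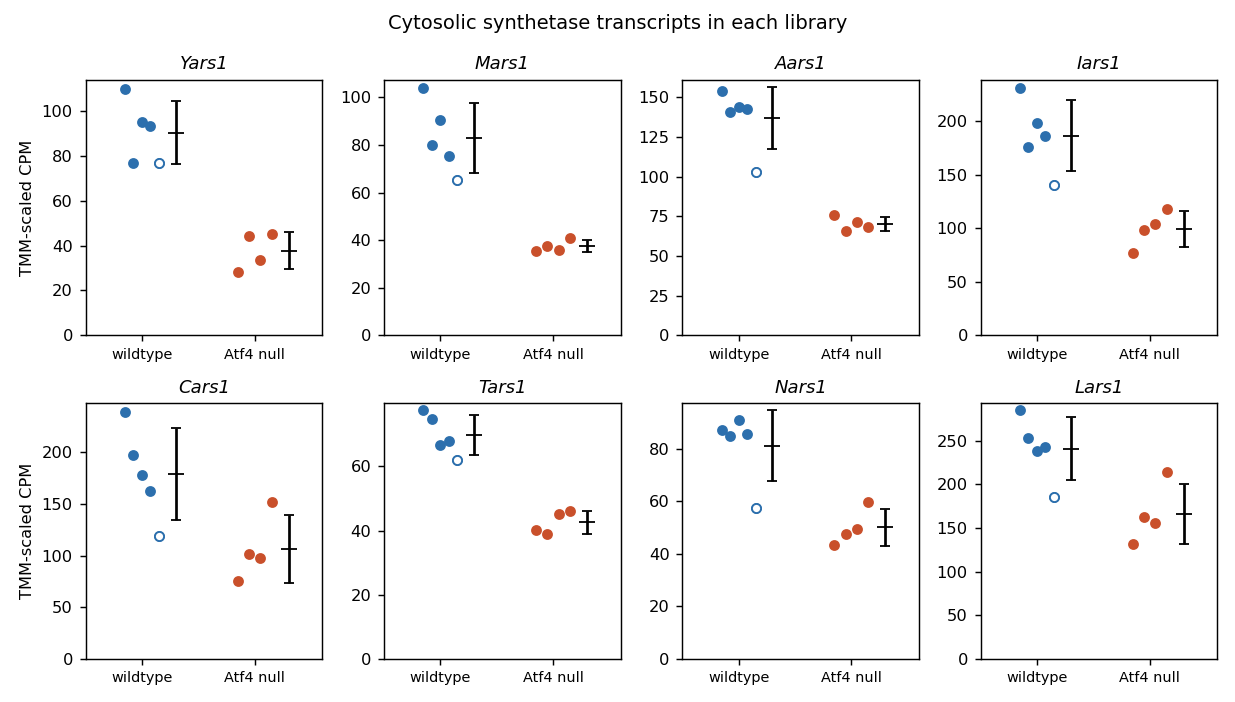
TMM-scaled CPM on the y axis, from 0, for the 8 cytosolic genes with the lowest fold changes, 1 point per library; blue is wildtype with replicate 5 as an open circle, orange is *Atf4* null, and the black bars give mean and SD. The open circle is the lowest wildtype point in all 8 genes, and it falls among the null points only in *Cars1*, *Nars1* and *Lars1*.

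The other 11 cytosolic polypeptides did not pass the test. *Gars1*, which encodes the glycine enzyme of both compartments, had a log2 fold change of -0.32 (SE 0.16), and *Eprs1*, a single protein that charges both glutamate and proline, had -0.27 (SE 0.12). *Qars1*, *Farsb*, *Vars1* and *Hars1* lay between -0.27 and -0.01. *Kars1*, the lysine enzyme of both compartments, and *Farsa*, *Sars1* and *Wars1* lay between 0.11 and 0.20. *Farsa* and *Farsb* encode the 2 subunits of 1 phenylalanine enzyme, and their values, 0.17 (SE 0.19) and -0.26 (SE 0.17), were on opposite sides of 0 without either passing. *Rars1*, the arginine enzyme, was the highest cytosolic gene at 0.45 (SE 0.17, adjusted p = 0.146 in edgeR's quasi-likelihood test). Its level was 61, 68.1, 70.3, 74.6 and 49.6 CPM in wildtype and 65.8, 83.7, 88.8 and 114 CPM in *Atf4* null libraries, so the groups overlapped.

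By complex membership, 2 of the 7 cytosolic enzymes of the multi-synthetase complex fell, *Mars1* and *Iars1*, and 4 of the 12 outside it did, where 3.67% of all genes tested fell. The median log2 fold change was -0.27 in the complex and -0.29 outside it. Within the complex the fitted values ran from -1.15 for *Mars1* to 0.45 for *Rars1*. The scaffold genes lay above 0 without passing the test. *Aimp1* had 43.5, 52.1, 35.5, 45.4 and 33.6 CPM in wildtype and 42.9, 69.5, 51.1 and 76.3 CPM in *Atf4* null libraries, a log2 fold change of 0.51 (SE 0.19, adjusted p = 0.154 in edgeR's quasi-likelihood test). *Aimp2* had 16.2, 20.2, 12.2, 15.1 and 14 CPM in wildtype and 15.7, 18, 16.4 and 24.5 CPM in *Atf4* null libraries, at 0.26 (SE 0.22). *Eef1e1* had 13.6, 2.96, 9.39, 10.5 and 5.46 CPM in wildtype and 7.38, 11.4, 10.2 and 9.32 CPM in *Atf4* null libraries, at 0.19 (SE 0.39). The groups overlapped in all 3 scaffold genes. The synthetases also fall into 2 classes by the fold of their catalytic domain. Of the cytosolic members, 3 of 9 in class I and 3 of 9 in class II fell, beside the same 3.67% of all genes tested, with *Eprs1* holding a domain of each class and left out of both counts.

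None of the 16 mitochondrial enzymes passed the test, where 5.90% of all genes did. The fitted values ran from -0.55 for *Sars2* to 0.79 for *Yars2*. *Yars2*, which charges the mitochondrial tyrosine transfer RNA, had 17.2, 16, 8.4, 14.6 and 14.1 CPM in wildtype and 28.6, 21.2, 19 and 28.2 CPM in *Atf4* null libraries. All null libraries lay above all wildtype libraries, and the log2 fold change was 0.79 with a standard error of 0.24 and an adjusted p of 0.0765 in edgeR's quasi-likelihood test. With DESeq2 the adjusted p was 0.035. *Mars2*, the mitochondrial methionine enzyme, had 7.96, 11, 12.2, 11.4 and 9.96 CPM in wildtype and 11.2, 18.1, 11 and 10 CPM in *Atf4* null libraries, with a log2 fold change of 0.26 (SE 0.26). *Aars2* had 16.8, 13.2, 18, 14.9 and 11.4 CPM in wildtype and 13.3, 15.2, 11 and 19.2 CPM in *Atf4* null libraries, at -0.02 (SE 0.24). *Iars2* had 65.2, 54.2, 59.4, 64 and 47.5 CPM in wildtype and 58, 49.6, 62.6 and 73.8 CPM in *Atf4* null libraries, at 0.07 (SE 0.15). The genotypes overlapped in *Mars2*, *Aars2* and *Iars2*. For threonine, *Tars2* had 41.3, 32, 32, 43 and 41.4 CPM in wildtype and 38.4, 28.1, 47.2 and 43.7 CPM in *Atf4* null libraries, at 0.05 (SE 0.18). For asparagine, *Nars2* had 12.6, 11.4, 8.15, 10.3 and 7.07 CPM in wildtype and 8.87, 6.48, 6.58 and 9.75 CPM in *Atf4* null libraries, at -0.32 (SE 0.29). The sum over the 16 mitochondrial genes was 290 to 332 CPM in wildtype and 307 to 342 CPM in *Atf4* null libraries, and the genotypes overlapped. Without the TMM factors the sum was 294 to 312 CPM in wildtype and 316 to 355 CPM in *Atf4* null libraries, so that every null library lay above every wildtype library, and the scaling decides whether these sums overlap.

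The cytosolic and the mitochondrial enzyme for the same amino acid were then compared within each library, as the log2 ratio of their CPM. Such a ratio does not depend on the scaling of the library, apart from the prior count of 2 added to the counts. It is not corrected for gene length, so only its difference between genotypes is read. There were 17 such pairs for 16 amino acids, and the ratio was lower in *Atf4* null lenses in 11 of them. In 7 pairs the genotypes did not overlap and the exact permutation test, two-sided, gave the smallest p it allows with 4 and 5 libraries, 0.00794, with a Benjamini-Hochberg adjusted p of 0.0193 over the 17 pairs. For neither count is a share over other pairs of genes given here.

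The largest difference among the 7 pairs was in tyrosine. The mean log2 ratio of *Yars1* to *Yars2* was 2.69 ± 0.47 (SD, n = 5) in wildtype and 0.62 ± 0.46 (SD, n = 4) in *Atf4* null lenses, a difference of -2.07. For methionine, *Mars1* to *Mars2*, the ratio went from 2.95 ± 0.41 to 1.59 ± 0.40, a difference of -1.36. The differences were -0.97 for isoleucine, -0.92 for alanine, -0.88 for leucine and -0.75 for threonine. In arginine the ratio moved the other way. *Rars1* to *Rars2* had a mean log2 ratio of 1.35 ± 0.26 (SD, n = 5) in wildtype and 2.01 ± 0.23 (SD, n = 4) in *Atf4* null lenses, a difference of 0.66. Neither *Rars1* nor *Rars2* passed the test on its own, and the same holds for *Lars1* and *Lars2*. In asparagine, where *Nars1* fell, the difference of the ratio was -0.38 and the genotypes overlapped (exact permutation p = 0.0556, adjusted p = 0.118). In cysteine the difference was -1.06, with a wildtype spread of 1.01 (SD, n = 5) beside *Cars2* levels of 4.08 to 14.9 CPM (exact permutation p = 0.135, adjusted p = 0.229). When *Atf4* null replicate 3 or any 1 wildtype library was left out, the adjusted p of the 7 pairs lay between 0.0506 and 0.0867 in a test with fewer samples, while their differences kept their sign.

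**Figure D4:**
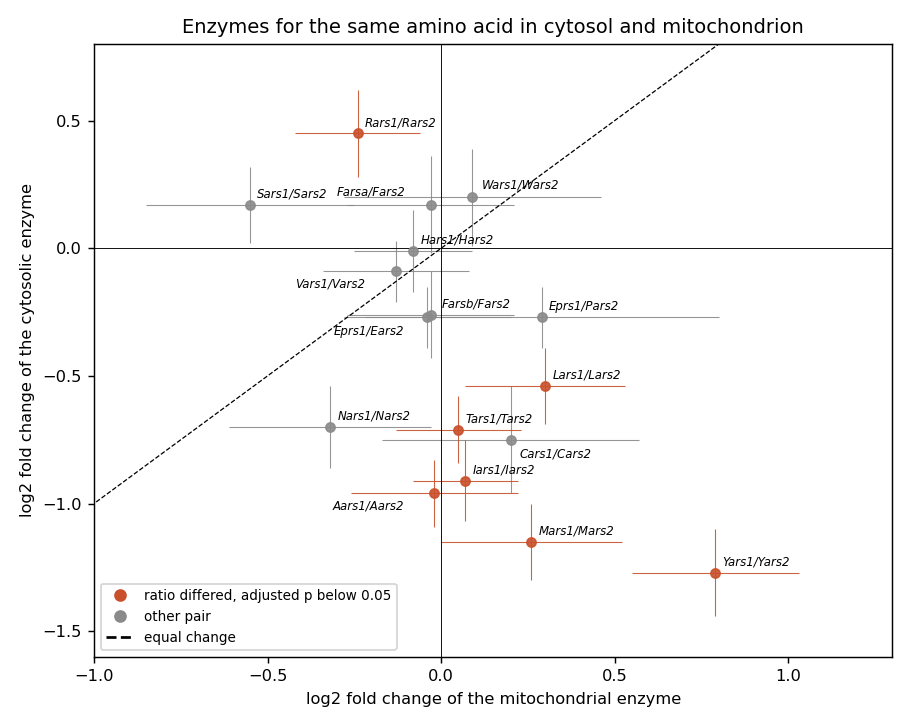
Log2 fold change of the mitochondrial enzyme on the x axis against that of the cytosolic enzyme for the same amino acid on the y axis, 1 point per pair with standard errors as bars and a dashed line of equal change. Orange points are the 7 pairs whose ratio differed between genotypes (adjusted p = 0.0193, exact permutation test): 6 lie below the line and *Rars1*/*Rars2* lies above it.

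To compare levels between genes, CPM were divided by the summed exon length of each gene, as FPKM. In wildtype lenses *Lars1* was highest at 40.5 ± 5.98 FPKM (SD, n = 5), followed by *Iars1* at 28.8 ± 5.08 FPKM and *Gars1* at 27.3 ± 5.44 FPKM. *Iars1* and *Gars1* did not differ beyond their spread. The next were *Vars1*, *Sars1*, *Hars1*, *Nars1* and *Eprs1*, from 18.5 down to 14.6 FPKM, each within the spread of its neighbour. The 19 cytosolic genes took 19 of the first 20 places, down to *Farsa* at 7.04 ± 1.28 FPKM, with *Aimp1* at 7.13 ± 1.28 FPKM among them. The mitochondrial enzymes ran from 6.21 ± 0.972 FPKM for *Vars2* to 0.673 ± 0.25 FPKM for *Wars2*, and *Aimp2* and *Eef1e1* stood at 4.96 and 2.04 FPKM. The genes that fell were spread over the cytosolic order, from the second place for *Iars1* to 10.9 ± 1.68 FPKM for *Yars1*. The length used bears on this order: with the longest transcript in place of all exons, *Eprs1* moved from 14.6 to 46.9 FPKM and to the second place, while *Lars1* stayed first at 57.8 FPKM. With that length the cytosolic genes no longer took 19 of the first 20 places, since *Farsb* and *Farsa*, at 9.49 and 7.48 FPKM, stood below the mitochondrial *Tars2* and *Iars2*, at 10.5 and 10.1 FPKM. In *Atf4* null lenses *Lars1* stood at 27.9 ± 5.79 FPKM (SD, n = 4), *Mars1* at 4.94 ± 0.324 FPKM and *Yars1* at 4.52 ± 1 FPKM, below *Farsa* at 7.92 ± 1.91 FPKM.

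**Figure D5:**
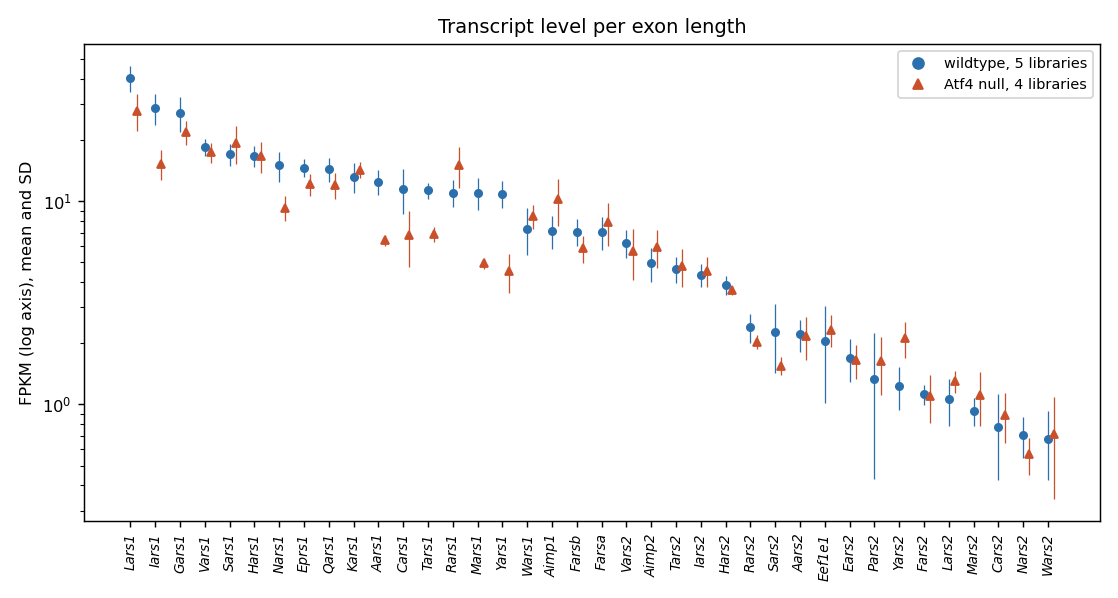
Mean FPKM with SD on a log axis for the 38 genes, ordered by wildtype level; blue circles are wildtype (5 libraries) and orange triangles *Atf4* null (4 libraries). Per summed exon length, as drawn, cytosolic genes stand on the left from *Lars1* at 40.5 FPKM and mitochondrial enzymes on the right, down to *Wars2* at 0.673 FPKM.

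The libraries of a genotype also differed among themselves. Summed over the 6 genes that fell, the level was 764, 634, 685, 651 and 505 CPM in wildtype replicates 1 to 5 and 300, 332, 339 and 378 CPM in *Atf4* null replicates 1 to 4. These sums describe genes chosen by the test and are not a test of their own. *Atf4* null replicate 4 was the highest null library for 14 of the 19 cytosolic genes, and wildtype replicate 5 the lowest wildtype library for 16 of 19. Over all genes tested, *Atf4* null replicate 4 was the highest null library for 31.4% and wildtype replicate 5 the lowest wildtype library for 28.9%. For the 16 mitochondrial genes these counts were 4 and 5, and for the 3 scaffold genes 2 and 1. With the TMM factors the same libraries were the highest null and the lowest wildtype library in the summed CPM of both groups. They stood at 342 and 290 CPM for the mitochondrial and 110 and 53.1 CPM for the scaffold genes. Without the TMM factors this did not hold. *Atf4* null replicate 4 was then the lowest null library for the mitochondrial genes, at 316 CPM, and wildtype replicate 1 the lowest wildtype library, at 294 CPM. For the scaffold genes the highest null library was then *Atf4* null replicate 2, at 105 CPM, and the lowest wildtype library replicate 3, at 53.8 CPM. *Atf4* null replicate 4 and wildtype replicate 5 had the TMM factors farthest from the rest of their genotype. The factors were 0.925 against 1.061 to 1.159 among the null libraries and 1.056 against 0.928 to 0.95 among the wildtype libraries. The sum over the 19 cytosolic genes was 1560 to 2080 CPM in *Atf4* null and 1820 to 2630 CPM in wildtype libraries, and without the TMM factors it was 1770 to 1920 CPM and 1910 to 2430 CPM, with *Atf4* null replicate 4 the highest null and wildtype replicate 5 the lowest wildtype library on both scales. Lens fiber markers took 10.5% of the counts in *Atf4* null replicate 4 and 5.53% to 7.85% in the other null libraries, and 6.55% in wildtype replicate 5 against 10.1% to 10.6% in the other wildtype libraries. The part of the markers and of the TMM factors in the level of the cytosolic genes was not tested.

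A further 18 genes of transfer RNA charging and of the elongation factor that takes up charged transfer RNA were read from the same fit, and 17 were tested. Of these, 2 fell and 1 rose, where 3.67% of all genes tested fell and 2.23% rose. *Ankrd16*, whose protein is known to help the alanine enzyme remove wrongly activated serine, had 36.2, 32.3, 32.1, 30.4 and 29.7 CPM in wildtype and 21.2, 20.9, 19 and 17.9 CPM in *Atf4* null libraries, without overlap. Its log2 fold change was -0.70 (SE 0.16, adjusted p = 0.0213 in edgeR's quasi-likelihood test). *Eef1b2*, a nucleotide exchange subunit of elongation factor 1, fell from 395 ± 16 CPM (SD, n = 5) to 300 ± 10.6 CPM (SD, n = 4), a log2 fold change of -0.40 (SE 0.10, adjusted p = 0.0284 in the same edgeR test). *Qrsl1*, a subunit of the mitochondrial amidotransferase that makes glutaminyl-transfer RNA, had 16.3, 13, 15.3, 13.2 and 6.32 CPM in wildtype and 19.1, 24.1, 31.7 and 31.9 CPM in *Atf4* null libraries. *Qrsl1* rose by 1.06 on the log2 scale (SE 0.27, adjusted p = 0.0363 in the same edgeR test).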

How the data were processed

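Whole lenses were dissected from 4 *Atf4* null and 5 wildtype embryos and 1 stranded library was made from the total RNA of each pair of lenses. The labels and the methods name different RNA kits. The authors trimmed reads with Trim Galore, removed ribosomal reads, aligned the rest to GRCm39 with HISAT2 and counted them per gene with HTSeq. The deposited values are raw counts per gene, without normalization, and 44.6% to 47.7% of each library lay in HTSeq's 5 summary entries, which were left out. Title and count file of each wildtype sample name different wildtype libraries, so wildtype replicate numbers may be swapped within that genotype. No pair of libraries repeated another (36 pairs, lowest chi-square per degree of freedom 7.7).

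Gene identifiers were joined to GENCODE vM39, a later annotation of the same build, which gave a symbol to 54749 genes and to all 38 members. The members, the gene lists and the tests were chosen with earlier results of these data known. In edgeR 4.0.16 (R 4.3.3), filterByExpr set the genes tested, TMM the scaling, and estimateDisp, glmQLFit and glmQLFTest compared the genotypes without a covariate. Benjamini-Hochberg adjustment covered all genes tested, at a threshold of 0.05. The standard error is the size of the log2 fold change divided by the root of F. Log2 CPM for ratios used a prior count of 2. Exact permutation tests covered every way of assigning 9 libraries to 4 and 5. The methods and labels name each sample as a separate embryo, so the p-values measure the spread between embryos. Values per library were given for the genes that passed, their mitochondrial partners and the scaffold genes, and for *Cars1*, *Lars1*, *Rars1* and *Yars2*, which were chosen after their values had been seen. Alternatives were edgeR's exactTest, DESeq2 1.42.0, DESeq2 size factors, library size alone, TMM without crystallins, no filter, a minimum of 10 counts in each of the libraries, a robust fit, the replicate number as a block and each library left out in turn. The fit and the permutation test were tested on simulated data. For *Aars1* the element search is counted but not described, and some items are not reported here.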

Additional observations from a re-analysis of the deposited data

Results flagged for a closer look

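Among 76 groups, each gene in each genotype, 3 held a library whose gap to the others was large for the range of its group, where chance at 1 in 20 would give 3.8. *Aars1* stood at 103 CPM in wildtype replicate 5 and at 141 to 154 CPM in the other wildtype libraries. *Nars1* stood at 57.4 CPM in the same library and at 84.8 to 90.8 CPM in the others. *Mars2* stood at 18.1 CPM in *Atf4* null replicate 2 and at 10 to 11.2 CPM in the other null libraries.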

How the results depend on the processing

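Over the 38 genes and 18 alternatives, 625 of 684 log2 fold changes kept their direction and their side of the threshold, 5 lost the call (*Nars1* each time), 21 gained one and 33 changed sign. The 33 belonged to 12 genes whose size was at most 0.20 and none of which had passed. With library size alone, which moved the median of all genes to 0.125, *Hars1* stood at 0.10, *Vars1* at 0.04, *Aars2* at 0.10, *Ears2* at 0.09, *Fars2* at 0.10 and *Hars2* at 0.04, and the number of genes called higher became 1 in the cytosol (*Rars1*, also the 1 in the complex), 1 in the mitochondrion (*Yars2*) and 1 scaffold (*Aimp1*). With DESeq2, 1 mitochondrial enzyme was called higher, again *Yars2*. Same-numbered libraries of the 2 genotypes did not vary together (correlations from -0.13 to 0.01). Wildtype replicate numbers may be swapped, so this cannot show whether the samples were paired by litter. With the replicate number as a block, over replicates 1 to 4, 873 genes were called against 1207 for the same libraries without it, and *Hars1* stood at 0.04, *Iars2* at -0.00 and *Wars2* at -0.01. With 1 library left out in turn, values changed sign in *Hars1* (from -0.10 to 0.09 over the libraries left out), *Aars2* (-0.18 to 0.10), *Cars2* (-0.01 to 0.34), *Ears2* (-0.15 to 0.09), *Fars2* (-0.20 to 0.09), *Iars2* (-0.04 to 0.16), *Tars2* (-0.05 to 0.18), *Vars2* (-0.27 to 0.05), *Wars2* (-0.33 to 0.27) and *Eef1e1* (-0.02 to 0.43). In the same way, the difference of the log2 ratio lay between -1.06 and -0.77 for *Aars1*/*Aars2*, -1.07 and -0.87 for *Iars1*/*Iars2*, -1.0 and -0.78 for *Lars1*/*Lars2*, -1.49 and -1.17 for *Mars1*/*Mars2*, -0.86 and -0.66 for *Tars1*/*Tars2*, -2.21 and -1.85 for *Yars1*/*Yars2* and 0.56 and 0.75 for *Rars1*/*Rars2*, and 3 of the 9 libraries could be left out with an adjusted p of 0.0434 in each pair. Without a wildtype library the smallest p of the exact permutation test is 0.0286, so these tests had little room. The ratio of 4 pairs that had not passed changed sign: *Hars1*/*Hars2* (-0.00 to 0.20), *Farsa*/*Fars2* (-0.01 to 0.48), *Wars1*/*Wars2* (-0.04 to 0.57) and *Vars1*/*Vars2* (-0.16 to 0.29). Within 1000 bases of the start, TGATGNAA was found in 12 cytosolic and 2 mitochondrial genes, against 17.3% of all protein-coding genes tested, and TGATGCAA in 11 cytosolic genes, against 3.82%. Over all genes tested, the count called ran from 527 without *Atf4* null replicate 2 to 1397 with DESeq2, and library size alone turned the split from 547 lower and 333 higher to 439 lower and 790 higher. The cause of these differences was not tested. Mitochondrial enzymes with few counts, such as *Pars2* at 5.01 CPM with a standard error of 0.51, limit what could be detected.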
